A study of Mus musculus with 9 samples.

Results

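The IL17 receptors and the type 2 cytokine axis are described here as 10 genes: Il17ra, Il17rb, Il17rc, Il17rd, Il17re, Il33, Il1rl1, Il4ra, Il13ra1 and Il6ra. They are 10 of 35071 genes to which the transcripts were summed, and all 10 passed the filter on low counts. They were listed by family and pathway, except that Il17rb was put at the head of the list for its rise in heterozygous knockouts, so its level in Hete KO libraries is a description and carries no test.

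The RNA was from the subcutaneous fat of C57BL/6 mice, all 24 weeks old, with 3 Homo KO, 3 Hete KO and 3 WT libraries, of which WT are littermates. Homo KO and Hete KO are homozygous and heterozygous for a knockout of AGO1, an Argonaute protein of microRNA-guided silencing, in endothelial cells (EC-AGO1-KO). The sources used here do not give the driver of the knockout, the sex of the mice or their diet, and p-values measure only the spread between these libraries. The whole tissue was sequenced, so that fewer cells of a type and less RNA per cell cannot be told apart.

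IL-17 family cytokines signal through paired receptor chains that share Il17ra: with Il17rc for IL-17A and IL-17F, with Il17rb for IL-25, and with Il17re for IL-17C. Il17rd is a further chain of the family, known for restraining growth factor signalling. IL-25 and IL-33 are alarm cytokines, with Il1rl1 (ST2) as the receptor for IL-33. Group 2 innate lymphoid cells of fat respond to both by releasing IL-13 and IL-5, and regulatory T cells of fat carry Il1rl1. Il4ra pairs with Il13ra1 to read IL-4 and IL-13, and Il6ra is the ligand-binding chain for IL-6.

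Ago1 itself, in normalized CPM (counts scaled to library size), had 62.2, 58.6 and 25.8 in Homo KO, 51.2, 59.7 and 60.1 in Hete KO, and 69.95, 63.8 and 63.4 in WT. Both KO groups lay below WT in every library in CPM but not in TPM, and the log2 fold changes of -0.43 ± 0.26 (SE) in Homo KO and -0.21 ± 0.26 in Hete KO did not pass (edgeR quasi-likelihood test, adjusted p = 0.441 and 0.699), and only Homo KO 3 was far lower. Skeletal muscle markers held over 1% of the counts in Hete KO 2, WT 1 and WT 2, and liver markers over 0.1% in WT 2 and WT 3. Adipocyte markers summed to 15090 to 16134 CPM in Homo KO, 12444 to 14974 CPM in Hete KO and 14012 to 17556 CPM in WT, as fits the labelled tissue. Each library had 20843427 to 28252001 estimated counts in all.

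Levels were compared between genes in TPM, which allows for transcript length. Over all 9 libraries Il6ra was the highest member, between 16.8 and 27.2 TPM, and it was above Il17rc in 9 of 9 libraries although their ranges overlapped. Il17rc had between 15.1 and 21.6 TPM and Il4ra between 11.5 and 18.8 TPM, and the higher of these was Il17rc in 7 of 9 libraries. A step that no library crossed separated Il4ra from Il17ra, which had between 5.13 and 7.48 TPM. Below it, Il1rl1, Il17re, Il17rd and Il17rb followed with means of 5.79, 4.97, 4.92 and 4.83 TPM, and their ranges overlapped with those of their neighbours in this order. Il13ra1 had between 2.25 and 4.58 TPM. Il33 was lowest, between 0.32 and 2.78 TPM, on 14 to 92 estimated counts per library.

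**Figure D1:**
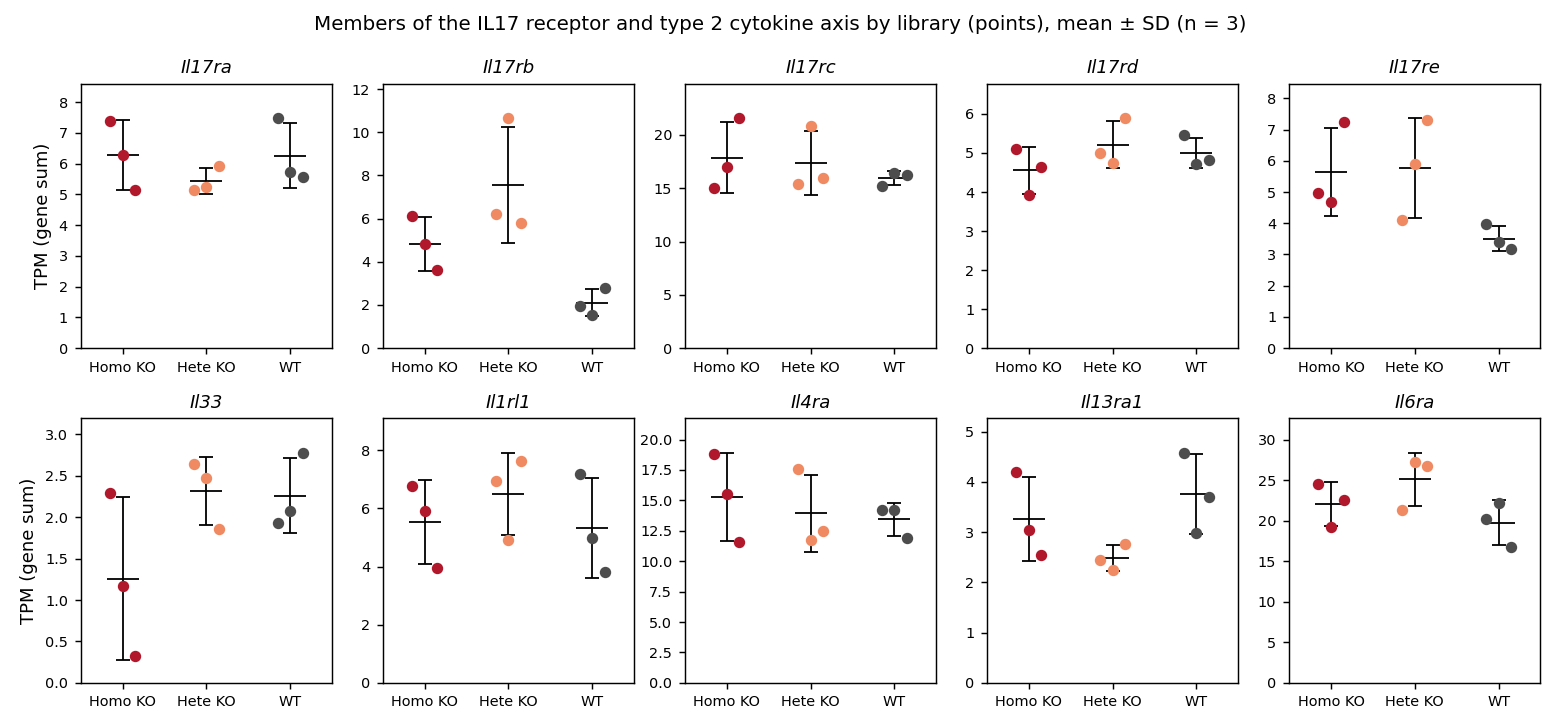
Levels of the 10 members in TPM (vertical axes, linear from 0) in each library of Homo KO, Hete KO and WT; points are libraries, and the bar and whiskers are the mean ± SD of 3. The WT points of Il17rb lie between 1.55 and 2.80 TPM, below every KO point, and those of Il17re between 3.18 and 3.97 TPM, also below every KO point.

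Il17rb, the IL-25 receptor chain, had the largest log2 fold changes against WT among the members. It was picked for its rise in Hete KO, so this rank is a description and carries no test. The gene (ENSMUSG00000015966.17) spans bases 29996135 to 30008896 of chromosome 14, minus strand (GRCm38). It had 4.62, 3.80 and 3.66 CPM in Homo KO, 5.27, 9.69 and 6.22 CPM in Hete KO, and 1.75, 1.76 and 2.21 CPM in WT. In CPM the 3 groups did not overlap: Hete KO was highest, Homo KO intermediate and WT lowest. In TPM both KO groups stayed above WT but overlapped with each other, with Homo KO 1 at 6.10 TPM against 5.80 TPM in Hete KO 3. The means were 4.03 ± 0.52 CPM in Homo KO, 7.06 ± 2.33 CPM in Hete KO and 1.91 ± 0.26 CPM in WT (SD, n = 3 each).

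Relative to WT the log2 fold change of Il17rb was 1.07 ± 0.27 (SE) in Homo KO and 1.88 ± 0.28 in Hete KO. The Homo KO libraries were not used to pick the gene, but the WT libraries were, and the Homo KO difference did not pass the test (edgeR quasi-likelihood test, adjusted p = 0.172 over 17968 genes; it passed under DESeq2, adjusted p = 0.039). Homo KO minus Hete KO was -0.81 ± 0.27 on the log2 scale. Without Hete KO 2, WT 1 and WT 2, the libraries with muscle transcripts, the log2 fold changes were 0.87 in Homo KO and 1.38 in Hete KO. These rest on WT 3 as the only WT library left.

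Il17rb lies head to head with Chdh, the mitochondrial choline dehydrogenase that turns choline into betaine aldehyde. Chdh is on the plus strand at 30009023 to 30040527 of chromosome 14, and 126 bases separate the annotated starts. That interval is shown because transcription of both genes runs outward from it. It is written 5′ to 3′ on the Il17rb strand, chr14:30008897-30009022, from RefSeq's promoter window on GRCm38.p6, and the capitals mark a GC box.
Il17rb-Chdh interval: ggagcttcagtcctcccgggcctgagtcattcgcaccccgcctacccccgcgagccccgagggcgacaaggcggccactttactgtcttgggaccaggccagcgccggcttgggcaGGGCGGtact
Its GC content was 69.8%, with 11 CG dinucleotides. The GC box (GGGCGG on either strand) was found in 35.6% of 32817 promoter windows of 300 bases.

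Chdh, named for its position and after its values were seen, had 90.5, 136 and 147 CPM in Homo KO, 122, 239 and 153 CPM in Hete KO, and 38.7, 53.6 and 67.2 CPM in WT. Every KO library was above every WT library, and Hete KO 2 was highest for both Chdh and Il17rb. The log2 fold change of Chdh was 1.23 ± 0.29 (SE) in Homo KO and 1.69 ± 0.29 in Hete KO (edgeR quasi-likelihood test, adjusted p = 0.162 and 0.0488), and the Hete KO call held in 7 of 20 other settings and was lost without any one of WT 2, WT 3, Hete KO 2, Hete KO 3 or a Homo KO library. Without Hete KO 2, WT 1 and WT 2 the log2 fold change of Chdh was 0.89 in Homo KO and 1.04 in Hete KO, with WT 3 as the only WT library left. Without the libraries with liver transcripts it was 1.69 in Homo KO and 2.15 in Hete KO, with WT 1 as the only WT library left. Across the 9 libraries, log2 CPM of Chdh and Il17rb had a Pearson r of 0.92, which ranked 50 among 14180 genes, of which 86 reached 0.9; the libraries share genotype groups and tissue makeup, so this is a description.

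**Figure D2:**
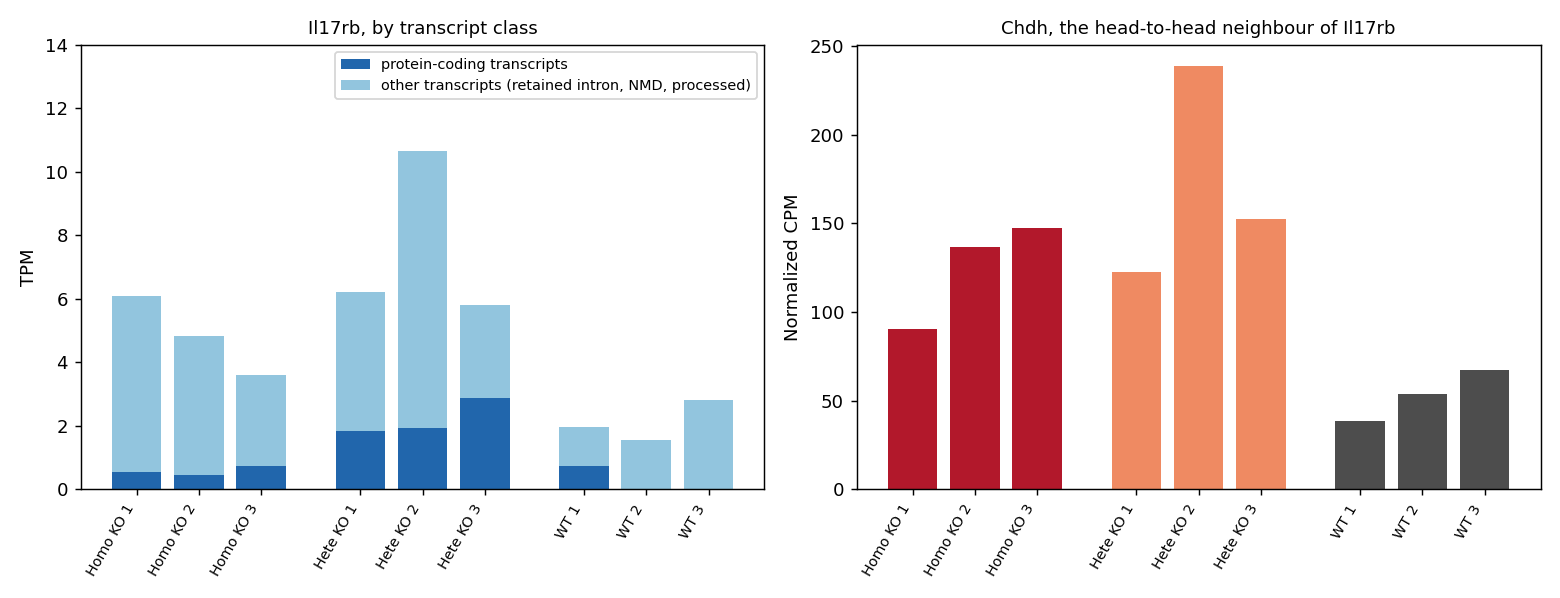
Left, Il17rb in TPM per library, stacked from the sum of its protein-coding transcripts and the sum of its other transcripts. Right, Chdh in normalized CPM per library. Libraries run from Homo KO through Hete KO to WT; the protein-coding part is between 1.85 and 2.88 TPM in Hete KO and at most 0.75 TPM in any other library.

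Much of the Il17rb signal was assigned to transcripts that do not encode the receptor. Summed over all libraries, the retained-intron transcript Il17rb-206 held 41.7% of the gene's TPM, the processed transcript Il17rb-205 22.1%, and transcripts annotated to nonsense-mediated decay, Il17rb-204 and Il17rb-203, 9.85 and 5.21%. The full receptor of 499 codons is encoded by Il17rb-202 and Il17rb-201, with 12.5 and 8.56%. Il17rb-206 begins inside an intron, whose last 355 bases (chromosome 14, 29998105 to 29998459) it keeps before an exon that it shares with Il17rb-201 (29998009 to 29998104). The sequences at that exon start are shown because reads across it are what separates the forms. Both are from GENCODE M21 transcripts on the minus strand, 5′ to 3′, with the shared exon (chr14:29998075-29998104) in capitals and the 30 bases before it in lower case.
Il17rb-201 at the exon start: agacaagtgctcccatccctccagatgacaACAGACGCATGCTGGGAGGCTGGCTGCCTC
Il17rb-206 at the exon start: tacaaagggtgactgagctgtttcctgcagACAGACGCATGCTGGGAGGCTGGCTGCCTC

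The receptor-coding transcripts of Il17rb summed to 0.54, 0.47 and 0.75 TPM in Homo KO, 1.85, 1.94 and 2.88 TPM in Hete KO, and 0.74, 0 and 0 TPM in WT. They are listed at 0 in WT 2 and WT 3, so no fold is given, and the sums behind them are 55.2 estimated counts in Homo KO, 209 in Hete KO and 22.4 in WT. Hete KO stood above the other groups, which overlapped. The remaining transcripts summed to 5.55, 4.35 and 2.85 TPM in Homo KO, 4.36, 8.71 and 2.92 TPM in Hete KO, and 1.23, 1.55 and 2.80 TPM in WT, and here Homo KO overlapped with Hete KO. These splits are estimates, since the quantifier divides reads that fit several transcripts. Actr8, an actin-related subunit of chromatin remodelling, overlaps Il17rb on the opposite strand through its transcript Actr8-204. This transcript had 0, 0 and 0.54 TPM in Homo KO, 0.42, 1.82 and 0 TPM in Hete KO, and 0 TPM in every WT library. Whether counting used strand is not given, and reads in the overlap cannot be told apart. The part of such reads in the Il17rb values was not tested. Actr8 as a whole differed less, by 0.04 ± 0.13 (SE) in Homo KO and 0.32 ± 0.13 in Hete KO on the log2 scale.

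By the same measure of likeness, genes close to Il17rb over the 9 libraries were Tnrc6c, a GW182 protein that binds Argonautes in microRNA silencing, Chd6, a chromodomain helicase, Zfp14, a zinc finger protein, Gpx3, the secreted glutathione peroxidase, and Rnf146, a ubiquitin ligase. Their Pearson r was between 0.96 and 0.97 among 14180 genes. Tnrc6c had 91.9, 90.9 and 88.3 CPM in Homo KO, 90.2, 108 and 99.4 CPM in Hete KO, and 76.5, 72.2 and 72.9 CPM in WT. In CPM these 5 genes were higher in every KO library than in every WT library, a property that choice by likeness to Il17rb favours. In TPM this did not hold for Tnrc6c, Chd6 and Zfp14, since Homo KO 3 had 13.7, 27.3 and 4.47 TPM of them, against up to 15.5, 34.6 and 4.92 TPM in WT. For Tnrc6c Hete KO 1, at 15.38 TPM, also lay below WT 1, at 15.50 TPM.

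Il17ra, the chain shared by the family, did not follow Il17rb. It had 27.4, 24.4 and 21.1 CPM in Homo KO, 18.6, 28.5 and 17.3 CPM in Hete KO, and 22.1, 25.7 and 19.7 CPM in WT, and all groups overlapped. Il17rc, the IL-17A and IL-17F partner chain, also overlapped in all groups, with 16.9 to 24.8 CPM in Homo KO, 16.9 to 22.3 CPM in Hete KO and 13.9 to 20.1 CPM in WT. Il17rd was the steadiest member. It had 19.5, 18.01 and 18.9 CPM in Homo KO, 20.99, 19.4 and 23.2 CPM in Hete KO, and 20.3, 20.4 and 19.5 CPM in WT. The log2 fold changes of these 3 genes lay between -0.09 and 0.17 in both comparisons with WT, each smaller than its SE.

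Il17re, the IL-17C receptor chain found mainly in epithelia, was higher in both KO groups without passing the test. It had 7.66, 7.22 and 13.1 CPM in Homo KO, 5.97, 9.86 and 11.3 CPM in Hete KO, and 5.64, 4.89 and 5.63 CPM in WT. No KO library fell into the WT range, but Hete KO 1 came close to it. The log2 fold change was 0.79 ± 0.29 (SE) in Homo KO and 0.75 ± 0.29 in Hete KO (edgeR quasi-likelihood test, adjusted p = 0.243 and 0.177). Il17re and Il17rc lie 668 bases apart on the plus strand of chromosome 6, yet the groups of Il17rc overlapped. Skin keratinocytes are an epithelium that expresses Il17re. Their markers summed to 7.27 to 11.3 CPM in Homo KO, 6.04 to 11.6 CPM in Hete KO and 5.29 to 6.18 CPM in WT. Of the 10 markers 4 passed the filter, and Krt15 was at 0 in all libraries. The sums for mammary epithelium and mesothelium overlapped between all groups. Mammary markers had 7.98 to 19.9 CPM in Homo KO, 10.8 to 12.4 CPM in Hete KO and 11.8 to 18.7 CPM in WT. Mesothelial markers had 28.99 to 42.1 CPM in Homo KO, 29.1 to 32.4 CPM in Hete KO and 31.1 to 43.2 CPM in WT. The part of these cells in the Il17re values was not tested.

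Il33, the alarm cytokine, had 2.63, 1.996 and 0.58 CPM in Homo KO, 1.33, 2.11 and 3.06 CPM in Hete KO, and 1.92, 3.41 and 3.28 CPM in WT. The groups overlapped and Homo KO 3, also the library with least Ago1, was lowest, on 14 estimated counts. A link between Il33 and Ago1 levels was not tested. With log2 fold changes of -0.73 ± 0.52 (SE) in Homo KO and -0.41 ± 0.52 in Hete KO (edgeR quasi-likelihood test, adjusted p = 0.506 and 0.695), neither comparison passed, and the libraries of Homo KO alone ranged from 0.58 to 2.63 CPM. The sign in Hete KO turned to 0.01 with an offset for transcript length.

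Il1rl1, which encodes the IL-33 receptor, had nearly the same gene-level signal in all groups: 19.7, 15.5 and 12.8 CPM in Homo KO, 14.1, 12.4 and 19.3 CPM in Hete KO, and 18.8, 17.0 and 14.3 CPM in WT. Its transcripts encode either the membrane receptor of 567 codons (Il1rl1-201 and Il1rl1-202) or a form of 337 codons without the membrane anchor (Il1rl1-203 and Il1rl1-205), known as soluble ST2, which binds IL-33 as a decoy. The short transcripts held 17.5, 37.5 and 16.8% of Il1rl1 TPM in Homo KO, 54.3, 42.2 and 38.0% in Hete KO, and 26.0, 12.1 and 0.88% in WT. Every Hete KO library was above every Homo KO and every WT library, while Homo KO and WT overlapped. Hete KO minus WT was 31.9 percentage points, and Homo KO minus Hete KO was -20.9 points. Each had an exact two-sided permutation p of 0.1, the smallest that 3 libraries against 3 allow, and 0.75 after adjustment over 30 transcript-share tests. As shares of estimated counts the differences were 12.6 and -9.65 points.

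Most of that short signal was Il1rl1-205, with 0.73, 1.87 and 0.66 TPM in Homo KO, 3.20, 1.70 and 2.53 TPM in Hete KO, and 1.75, 0 and 0 TPM in WT. It starts upstream of the other main forms, at base 40429570 of chromosome 1, whereas Il1rl1-202 starts at 40439627. Il1rl1 is known to be transcribed from a distal and a proximal promoter, so the 250 bases before each of the RefSeq starts are shown, on the plus strand of GRCm38.p6, distal at chr1:40429320-40429569 and proximal at chr1:40439379-40439628. Capitals mark AGATAA, a form of the letters bound by GATA factors, on either strand (read as TTATCT on the other), and GGGCGG, the GC box. Other forms bound by GATA factors were not searched and are not marked.
Il1rl1 distal window: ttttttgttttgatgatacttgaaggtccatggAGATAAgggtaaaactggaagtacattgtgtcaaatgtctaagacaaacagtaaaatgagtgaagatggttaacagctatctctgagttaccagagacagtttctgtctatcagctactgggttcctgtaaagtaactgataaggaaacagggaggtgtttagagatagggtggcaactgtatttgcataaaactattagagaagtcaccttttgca
Il1rl1 proximal window: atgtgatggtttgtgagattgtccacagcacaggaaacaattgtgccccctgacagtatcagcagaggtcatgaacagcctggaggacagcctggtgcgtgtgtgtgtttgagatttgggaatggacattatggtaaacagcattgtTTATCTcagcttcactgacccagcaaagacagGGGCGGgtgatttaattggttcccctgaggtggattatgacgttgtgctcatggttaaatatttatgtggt
AGATAA was in both windows and in 11.2% of all 32817 windows. The distal window had 37.6% GC and no CG dinucleotide, against 69.8% GC in the Il17rb-Chdh interval.

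**Figure D3:**
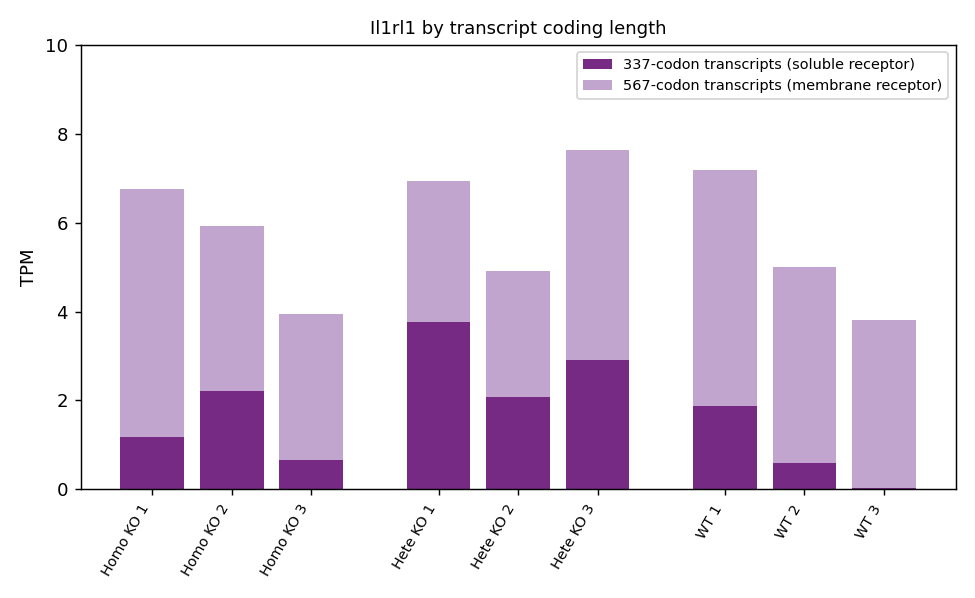
Il1rl1 in TPM per library, stacked from transcripts of 337 codons (soluble receptor) and of 567 codons (membrane receptor), from Homo KO through Hete KO to WT. The 337-codon part is largest as a share in the Hete KO libraries, between 38.0 and 54.3%, and smallest in WT 3, at 0.88%.

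Il4ra, the chain shared by the IL-4 and IL-13 receptors, had 43.3, 38.6 and 28.9 CPM in Homo KO, 38.7, 27.1 and 29.6 CPM in Hete KO, and 34.1, 37.1 and 27.3 CPM in WT, and all groups overlapped. Its partner Il13ra1 had 9.97, 7.94 and 6.82 CPM in Homo KO, 6.01, 5.94 and 6.86 CPM in Hete KO, and 10.7, 7.66 and 10.02 CPM in WT. Hete KO lay below WT in every library, while Homo KO overlapped with both. The log2 fold change of Il13ra1 was -0.20 ± 0.20 (SE) in Homo KO and -0.60 ± 0.20 in Hete KO (edgeR quasi-likelihood test, adjusted p = 0.644 and 0.135). Il13ra1 is expressed by macrophages among other cells, and 12 macrophage markers summed to 588 to 995 CPM in Homo KO, 429 to 694 CPM in Hete KO and 855 to 1382 CPM in WT. Of those, 0 of 12 passed in Homo KO and 1 of 12 in Hete KO, against 0 and 0.417% of all genes. The 1 was C1qc (log2 fold change -1.17, adjusted p = 0.0426 with edgeR), lost without WT 2, Hete KO 2, Hete KO 3 or any Homo KO library. The markers' median log2 fold change was -0.58 in Homo KO and -1.10 in Hete KO. In CPM 4 of 12 lay below WT in every Homo KO library and 8 of 12 in every Hete KO library, against 11.2 and 12.1% of all genes. In TPM it was 1 and 7, against 8.07 and 9.94%. The part of macrophages in the Il13ra1 values was not tested.

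Il6ra, the IL-6 receptor chain, had 77.0, 63.7 and 76.4 CPM in Homo KO, 66.2, 92.2 and 84.6 CPM in Hete KO, and 61.0, 63.7 and 57.4 CPM in WT. Hete KO was above WT in every library, and Homo KO 2 touched the top of the WT range. In TPM the groups overlapped, with WT 2 at 22.3 TPM against 21.3 TPM in Hete KO 1. The log2 fold change was 0.25 ± 0.14 (SE) in Homo KO and 0.42 ± 0.14 in Hete KO (edgeR quasi-likelihood test, adjusted p = 0.379 and 0.124); without Hete KO 1 the adjusted p in Hete KO was 0.0346. Among the 45 pairs of members, log2 CPM of Il6ra had a Pearson r of 0.84 with Il17rb and 0.80 with Il17re over the 9 libraries, which share their groups.

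**Figure D4:**
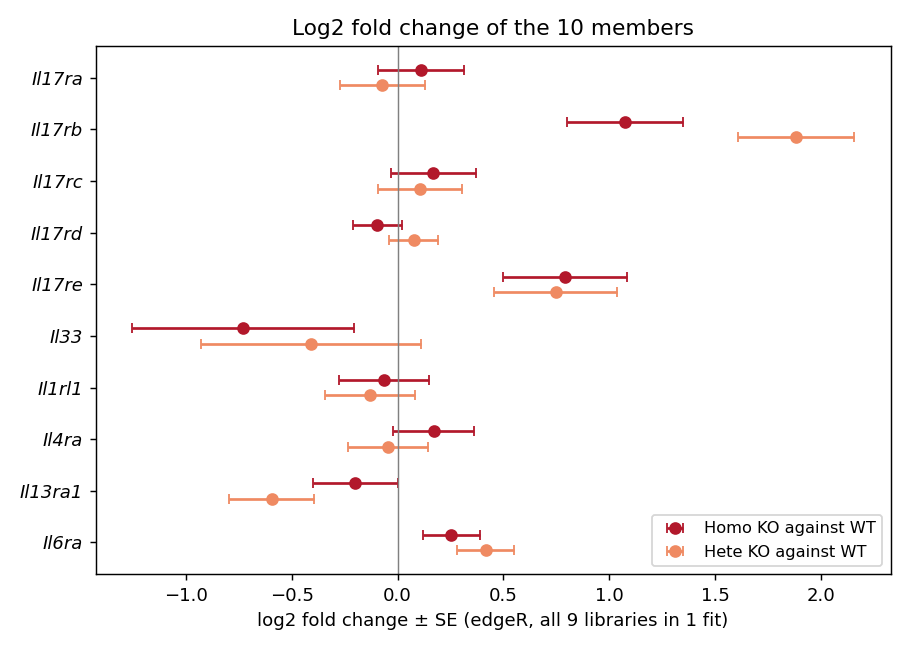
Log2 fold change with its SE (horizontal axis) of each of the 10 members in Homo KO against WT and Hete KO against WT, from the edgeR fit of all 9 libraries. Il17rb at 1.07 and 1.88 and Il17re at 0.79 and 0.75 lie furthest above 0; both comparisons share the WT libraries.

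Counted together, 0 of 10 members passed an adjusted p of 0.05 in Homo KO against WT, where 0% of all genes tested passed; at an unadjusted p under 0.05 it was 2 of 10, Il17rb and Il17re, against 16.4% of all genes with edgeR, which is 2952 genes, 3224 with DESeq2 and 2063 with limma. In Hete KO against WT 1 of 10 passed, Il17rb, the gene picked on that contrast, against 0.417% of all genes (27 higher and 48 lower); at an unadjusted p under 0.05 it was 4 of 10, against 21.9% of all genes. The call of Il17rb is lost when any one of WT 2, WT 3, Hete KO 2, Hete KO 3 or the 3 Homo KO libraries is left out. In Homo KO against Hete KO 0 of 10 passed, as did 0% of all genes. At an unadjusted p under 0.05 1 of 10 did, Il17rb, which was lower in Homo KO. It was picked for its rise in Hete KO, which favours that difference, so this count is a description. The share of all genes was 5.44% with edgeR, 978 genes, with 1066 for DESeq2 and 710 for limma.

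In CPM, groups did not overlap for 3 of 10 members in Homo KO against WT (Il17rb and Il17re higher, Il17rd lower), against 22.1% of all genes. For Il17rd the gap was small, with 19.52 CPM in Homo KO 1 against 19.54 CPM in WT 3. It was 4 of 10 in Hete KO against WT (Il17rb, Il17re and Il6ra higher, Il13ra1 lower), against 24.7%, and 1 of 10 in Homo KO against Hete KO (Il17rb lower), against 11.4%. In TPM, a scale added after the data were seen, it was 2 of 10 in Homo KO against WT (Il17rb and Il17re), against 16.8% of all genes, 3 of 10 in Hete KO against WT (Il17rb, Il17re and Il13ra1), against 19.7%, and 0 of 10 in Homo KO against Hete KO, against 9.5%. Il17rd then had 3.92 to 5.11 TPM in Homo KO and 4.72 to 5.45 TPM in WT. The members' median log2 fold change was 0.14, 0.02 and 0.05 in these comparisons, against -0.006, 0.02 and 0.003 over all genes. Apart from the gene picked, the members' counts were read against these shares and nothing particular to the members is drawn from them.

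Transcripts of the listed IL-17 family and type 2 ligands were mostly scarce. The list is wider than the members' own ligands: some of its genes, Lif and Il5 among them, are not ligands of a member. Il25, which encodes the ligand of Il17rb, had 7 estimated counts in 1 library, Hete KO 1, and 0 in the other libraries. Il17a had 5 counts in 1 library, Il17b 5 counts in 3 libraries, Il6 4 counts in 2 libraries, and Il9 and Il31 had 0. Il13 had 39 counts in 6 libraries and Il17c, the ligand read by Il17re, 49 counts in 9 libraries, with at most 12 in any of them. Of the 15 ligands on this wider list 7 could be tested, and none passed in any comparison. Lif, the one with the smallest p in Homo KO, had 2.90, 2.04 and 3.16 CPM in Homo KO, 4.71, 3.37 and 3.21 CPM in Hete KO, and 4.13, 4.21 and 4.42 CPM in WT. Il5 and Il4 lay the other way. Il5, the growth factor of eosinophils, had 0.59, 0.43 and 0.41 CPM in Homo KO, 0.59, 0.51 and 0.53 CPM in Hete KO, and 0.33, 0 and 0.36 CPM in WT, above WT in every KO library on at most 16 estimated counts per library. Il4, a ligand of Il4ra, had 0.86, 0.33 and 1.44 CPM in Homo KO, 1.82, 1.14 and 1.51 CPM in Hete KO, and 1.04, 0.24 and 0.78 CPM in WT. Hete KO lay above WT in CPM but not in TPM, where WT 1 had 4.47 TPM against 4.40 TPM in Hete KO 2, and Homo KO overlapped with WT.

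Of 19 co-receptors, decoys and adaptors tested, none passed; 6 lay below WT in every Homo KO library and 8 in every Hete KO library, against 11.2 and 12.1% of all genes; in TPM it was 3 and 5, against 8.07 and 9.94%. Il13ra2, the decoy receptor for IL-13, had 2.54, 2.28 and 0.66 CPM in Homo KO, 1.85, 0.89 and 1.07 CPM in Hete KO, and 5.80, 5.69 and 7.99 CPM in WT. Its log2 fold change was -1.83 ± 0.47 (SE) in Homo KO and -2.34 ± 0.48 in Hete KO (edgeR quasi-likelihood test, adjusted p = 0.172 and 0.0606). Crlf2, the receptor chain for TSLP, had 8.74, 7.32 and 7.19 CPM in Homo KO, 8.53, 4.30 and 6.37 CPM in Hete KO, and 13.1, 17.4 and 14.5 CPM in WT. Traf2 and Traf3, adaptors that hold back noncanonical NF-kB signalling, had log2 fold changes of -0.79 and -0.49 in Homo KO and -0.77 and -0.63 in Hete KO. For Traf3 this depended on the scale: with an offset for transcript length its log2 fold change was -0.09 in Homo KO and -0.41 in Hete KO, and in TPM it overlapped, with 20.2 to 25.0 TPM in Homo KO, 15.3 to 22.7 TPM in Hete KO and 21.8 to 25.9 TPM in WT.

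Of 18 Jak, Stat and NF-kB mediators none passed. Stat3, which carries IL-6 signals, had 123, 125 and 116 CPM in Homo KO, 120, 108 and 113 CPM in Hete KO, and 160, 146 and 155 CPM in WT. Nfkb2, the noncanonical NF-kB subunit, had 34.3, 40.1 and 33.5 CPM in Homo KO, 43.2, 28.5 and 31.2 CPM in Hete KO, and 52.9, 75.0 and 52.3 CPM in WT. Both lay below WT in every KO library in CPM, with adjusted p = 0.184 and 0.172 in Homo KO and 0.0619 and 0.0696 in Hete KO (edgeR). In TPM Stat3 overlapped between Homo KO, with 66.8 to 118 TPM, and WT, with 89.4 to 118 TPM, and with an offset for transcript length its log2 fold change in Homo KO was -0.12, against -0.34 without it. Cish, a Stat5 target that damps cytokine receptors, had 7.93, 4.37 and 3.12 CPM in Homo KO, 14.2, 52.3 and 4.28 CPM in Hete KO, and 3.76, 3.97 and 5.03 CPM in WT, so that Hete KO 2 set its mean.

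Of 13 IL-17 response genes tested none passed, and their median log2 fold change was -0.10 in Homo KO and -0.43 in Hete KO. In each comparison with WT 5 of 13 had a positive log2 fold change. In CPM 3 of 13 lay below WT in every Homo KO library and 4 of 13 in every Hete KO library, against 11.2 and 12.1% of all genes. In TPM it was 4 and 5, against 8.07 and 9.94%. Lcn2, S100a8 and Mmp3 are named for having the smallest p of the list. Lcn2, lipocalin 2, a classical target of IL-17 signalling, had 1.31, 0.998 and 0.53 CPM in Homo KO, 0.30, 0.13 and 0.53 CPM in Hete KO, and 2.55, 2.77 and 2.42 CPM in WT (log2 fold change -1.44 ± 0.49 in Homo KO and -3.01 ± 0.53 in Hete KO, SE; edgeR adjusted p = 0.225 and 0.0526). Lcn2 in Hete KO rested on only 8, 3 and 11 estimated counts. S100a8, a calprotectin subunit of myeloid cells, and Mmp3, stromelysin, also lay below WT in every KO library, with only 30, 3 and 8 estimated counts of S100a8 in Hete KO. Mmp3 had 54.0, 41.6 and 32.2 CPM in Homo KO, 52.7, 16.1 and 29.95 CPM in Hete KO, and 72.4, 82.6 and 75.3 CPM in WT. Progenitor and fibroblast markers, cells that express Mmp3, summed to 3609 to 4124 CPM in Homo KO, 1872 to 3492 CPM in Hete KO and 4498 to 6178 CPM in WT. Of those 12 markers Dpp4 was the only one that passed, in Hete KO (log2 fold change -1.15, edgeR adjusted p = 0.049; lost without WT 2, WT 3, Hete KO 2, Hete KO 3 or any Homo KO library), 11 of 12 lay below WT in every Hete KO library, against 12.1% of all genes (9 of 12 in TPM, against 9.94%), and their part in the response genes was not tested.

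Of 14 type 2 response genes tested none passed, with a median log2 fold change of 0.01 in Homo KO and -0.40 in Hete KO. Arg1, arginase of alternatively activated macrophages and of liver, had 0.63, 0.24 and 0.21 CPM in Homo KO, 0.37, 0.46 and 0.92 CPM in Hete KO, and 0.71, 13.4 and 19.2 CPM in WT. Its high values were in WT 2 and WT 3, the libraries with liver transcripts. Without them, with WT 1 as the only WT library left, the log2 fold change was -0.98 in Homo KO and -0.29 in Hete KO, against -4.94 and -4.26 with them. Clec10a, a macrophage lectin, had 35.2, 24.5 and 20.1 CPM in Homo KO, 18.7, 11.3 and 12.7 CPM in Hete KO, and 24.7, 29.3 and 26.9 CPM in WT. Ccl11, the eosinophil chemokine eotaxin, lay above WT in every KO library, with 48.0, 41.7 and 43.3 CPM in Homo KO, 41.6, 45.4 and 52.2 CPM in Hete KO, and 35.9, 28.7 and 36.5 CPM in WT (edgeR adjusted p = 0.221 and 0.099).

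For cells known to carry these receptors, sums of markers are given, which do not by themselves show that the cells were present. The 13 markers of group 2 innate lymphoid cells summed to 328 to 399 CPM in Homo KO, 313 to 385 CPM in Hete KO and 366 to 490 CPM in WT, and of 10 tested none passed. Areg, Il13 and Ptgdr2 were too low to test, with 10, 39 and 22 estimated counts over all libraries, so other markers made up the sum. Regulatory T cell markers summed to 38.4 to 45.1 CPM in Homo KO, 39.7 to 50.02 CPM in Hete KO and 37.9 to 43.5 CPM in WT, and 0 of 6 tested passed. Mast cell markers, of cells that carry Il1rl1, summed to 35.8 to 59.3 CPM in Homo KO, 30.3 to 41.0 CPM in Hete KO and 41.7 to 59.6 CPM in WT, with Fcer1a at 0 in all libraries but WT 3. None of the 12 T, NK and NKT cell, 8 B cell, 12 endothelial or 12 adipocyte markers passed in any comparison. The 3 eosinophil, 5 mesothelial and 4 mammary epithelium markers that could be tested did not pass either. The sums of T cell and of endothelial markers overlapped between all groups, whereas B cell markers summed to 344 to 369 CPM in Homo KO, 153 to 601 CPM in Hete KO and 532 to 615 CPM in WT. Gene by gene most B cell markers went the other way. Of 8, 7 had a positive log2 fold change in each comparison with WT, with medians of 0.76 in Homo KO and 0.99 in Hete KO. The part of these cells in the members' values was not tested.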

How the data were processed

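RNA-seq of 9 adipose tissue libraries was used, 3 for each genotype. The deposited files list 113193 transcripts with, per the file headers, estimated counts (expected counts, not normalized) and TPM, which the authors scaled to effective length and library total. Per the submitters' processing notes, mm10 was the genome build; which quantifier was run is not given in the sources used here. GENCODE M21 matched 111362 transcripts (98.38%); the 1831 others, with 0.581 to 1.06% of a library's counts, were not used. Counts were added up per gene (35071 genes) and rounded to whole numbers.

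All 9 libraries were fitted together in edgeR 4.0.16 (R 4.3.3; quasi-likelihood F-test, two-sided, TMM, prior count 0.125 for fold changes and 2 for levels), and p-values were adjusted by Benjamini-Hochberg over 17968 genes, with a threshold of 0.05. DESeq2 1.42.0, limma 3.58.1 on log2(TPM + 0.5) and log2(TPM + 0.1), and other settings were alternatives. Transcript shares were compared by exact permutation with scipy 1.17.1. The fit was tested on simulated data. Named are all members, Ago1, up to 4 genes per pathway list and 3 per cell type list with the smallest p, and the 6 genes most like Il17rb, of which 1 is not reported here; Chdh and Actr8 were added for their position. Members and lists were chosen with earlier results of these data known. RefSeq windows matched 9 of 10 members; motifs were searched on both strands.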

Additional observations from a re-analysis of the deposited data

How the results depend on the processing

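The counts of genes called moved with the tool, the scale and the libraries used, and the cause was not tested. In Homo KO against WT, 0 genes and 0 members were called; DESeq2 called 634 genes and 1 member (Il17rb), no filter on low counts 1 gene, a fit of the compared groups only 7, and leaving out the libraries with muscle or liver transcripts 41 and 2 genes. In Hete KO against WT, 75 genes and 1 member were called; DESeq2 called 1610 genes, no filter 258, and an offset for transcript length 1 gene and 0 members. The compared groups only gave 0 genes and 0 members, as did limma with a pseudocount of 0.5 and of 0.1, while leaving out the muscle libraries gave 11 genes and the liver libraries 1 gene, both with 0 members. In Homo KO against Hete KO, 0 genes were called and DESeq2 called 4. Leaving out each library in turn gave 0 to 153 genes in Homo KO against WT, 0 to 958 genes and 0 to 2 members in Hete KO against WT, and 0 members in the other comparisons. Whether the replicate numbers pair the libraries is not known, and the values do not settle it. Deviations of same-numbered libraries correlated between -0.07 and 0.46, with 3 of 9 over 0.1, and 5 of 9 libraries correlated best with their own number. The replicate block gave 248 genes and 1 member in Hete KO against WT and 0 genes in the others.

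Over 20 other settings the log2 fold change of Il17rb against WT lay between 0.87 and 1.202 in Homo KO and between 1.38 and 2.08 in Hete KO. The gene was picked for its rise in Hete KO, so its sign there is no check of the result. Il17rb was called in 7 of 20 other settings in Hete KO against WT and in 1 of 20 in Homo KO against WT. Signs turned for members near 0. With the offset for transcript length, Il17ra was -0.019 and Il1rl1 0.039 in Homo KO against WT, Il33 was 0.013, Il1rl1 0.30 and Il4ra 0.050 in Hete KO against WT, and Il17re was -0.028 and Il1rl1 -0.26 in Homo KO against Hete KO. With limma at pseudocounts of 0.5 and 0.1, Il1rl1 was 0.061 and 0.066 in Homo KO against WT; in Hete KO against WT Il33 was 0.032 and 0.037, Il1rl1 0.28 and 0.30 and Il4ra 0.033 and 0.034; in Homo KO against Hete KO Il17re was -0.0185 and -0.0188 and Il1rl1 -0.22 and -0.24. Without the muscle libraries, Il1rl1 was 0.16 in Homo KO against WT, Il17rc -0.16, Il1rl1 0.23 and Il4ra 0.33 in Hete KO against WT, and Il1rl1 -0.068 in Homo KO against Hete KO; without the liver libraries Il33 was 0.17 in Hete KO against WT. Leaving out 1 library, ranges that crossed 0 were -0.23 to 0.084 for Il1rl1 in Homo KO against WT. In Hete KO against WT they were -0.34 to 0.084 for Il17ra, -0.031 to 0.22 for Il17rc and -0.19 to 0.066 for Il4ra. In Homo KO against Hete KO they were -0.12 to 0.19 for Il17rc, -0.29 to 0.22 for Il17re, -0.12 to 0.26 for Il1rl1 and -0.76 to 0.087 for Il33. Of other named genes in Homo KO against WT, Actr8 was -0.093 with the offset, -0.0703 and -0.0712 with limma and -0.0201 without the muscle libraries; Cish was -0.16 with the offset, -0.14 and -0.17 with limma and between -0.17 and 0.54 leaving out 1 library; Il4 was -0.24 without the liver libraries and between -0.20 and 0.77 leaving out 1 library; Clec10a was 0.11 without the liver libraries and between -0.26 and 0.16 leaving out 1 library. The share of Il4ra-205 in Homo KO against WT lay between -2.26 and 8.01 points leaving out 1 library. Counting precision was lowest for Il33 and Il17rb, with 14 to 92 and 42 to 230 estimated counts per library.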

Other observations

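The transcript make-up of other members is given as values. Il17re signal lay mostly on retained-intron transcripts: Il17re-207, a single-exon transcript, held 35.4% and Il17re-206 33.7% of its TPM over all libraries, and the transcripts that encode protein summed to 1.27, 1.33 and 1.94 TPM in Homo KO, 0.58, 1.33 and 1.34 TPM in Hete KO, and 0.82, 1.55 and 0.84 TPM in WT. All groups overlapped at that level, whereas the gene sums of KO and WT did not.

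Il4ra signal lay mostly on Il4ra-205, annotated to nonsense-mediated decay, with 63.4, 78.3 and 68.3% of Il4ra TPM in Homo KO, 59.9, 47.4 and 54.4% in Hete KO, and 70.8, 73.7 and 53.2% in WT. Homo KO minus Hete KO was 16.1 percentage points, without overlap, with an exact two-sided permutation p of 0.1, the smallest that 3 against 3 libraries allow, and 0.75 after adjustment over 30 tests. Il6ra-201 held 75.7% of Il6ra TPM, and Il13ra1 has a single listed transcript.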
